A study of Mus musculus with 6 samples.

Results

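The genes described here encode the proton pump of the lysosome, the cathepsins that work in its acid interior and the Lamp proteins of its membrane, measured in mouse primary renal tubular epithelial cells (TECs) after knockdown of the transcription factor Sox9. They were taken by gene symbol alone: every protein-coding gene of the table whose symbol began with Atp6v0 or Atp6v1, was Atp6ap1 or Atp6ap2, was Cts followed by 1 letter, or was Lamp1 or Lamp2. The rule gave 40 genes of 30315 in the table, of which 12 encode subunits of the V1 sector, 9 subunits of the V0 sector and 2 accessory subunits of the pump, 12 are cysteine cathepsins, 2 aspartic cathepsins, 1 a serine cathepsin (Ctsa) and 2 Lamp genes. Tcirg1, which encodes another form of V0 subunit a, falls outside the symbols of the rule and is given beside its paralogs.

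RNA-seq had been run on 6 libraries, 3 of TECs transfected with a short interfering RNA against Sox9 (siSox9) and 3 of TECs transfected with a negative-control siRNA (siNC). The authors list no other siRNA against Sox9, so off-target effects of its sequence and effects of the loss of Sox9 cannot be told apart. All of the cells, controls included, came from C57BL/6 mouse kidney and had gone through hypoxia in glucose-free medium followed by reoxygenation (H/R), a culture model of ischaemic kidney injury, so the libraries hold no untransfected or uninjured cells and the comparison is between siRNAs within H/R. The labels did not say whether the 3 libraries of a group came from separate cultures or mice, and p-values therefore measure the spread between these libraries, which may be technical. Transfection preceded H/R by 12 h, hypoxia at 1.0% O2 lasted 6 h and reoxygenation in complete medium 18 h. Values are the deposited FPKM, reads per kilobase of exon scaled to the reads of the library, and since these are bulk samples fewer cells of a type and less RNA per cell cannot be told apart.

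The vacuolar H+-ATPase (V-ATPase) is a rotary pump. Its V1 sector lies in the cytosol and hydrolyses ATP on subunits A and B, and rotation of a central stalk drives the V0 sector, in which a ring of c subunits moves protons past subunit a into the lumen. The low pH activates cathepsins, which are made as inactive precursors and break down proteins delivered by endocytosis and autophagy, and Lamp1 and Lamp2 are the abundant heavily glycosylated proteins of the limiting membrane. Several subunits have more than 1 gene, and in the kidney the isoforms B1, a4, d2, C2 and G3 are known from the intercalated cells of the collecting duct, which carry the pump on the cell surface. Many lysosomal genes carry a promoter element with the core CACGTG, called the CLEAR element, to which TFEB and related MiT/TFE factors are known to bind.

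The promoters are shown first because some of them carry the core sequence CACGTG. RefSeq start sites on GRCm38.p6 gave a promoter, from 250 bases before to 50 bases after the start, for 30 of the 40 genes. The letters CACGTG, which read the same on both strands, stood in 9 of the 30 (30%), against 8.09% of the promoters of all genes. The longer TCACGTG, searched on both strands and always containing the shorter motif, stood in 7 of the 30 (23.3%), against 4.29% of all genes. Among the 24 of these genes expressed at a mean of 1 FPKM or more, CACGTG stood in 9 (37.5%) and TCACGTG in 7 (29.2%), against 12.1% and 7.28% of all genes expressed at that level. The windows printed here are those of the 4 genes with CACGTG that rose with siSox9 (described further on), with the matches to CACGTG and, where present, the flanking T or A of TCACGTG in capitals, each read 5′ to 3′ on the strand of the gene.
Lamp1, chr8:13159074-13159176, + strand: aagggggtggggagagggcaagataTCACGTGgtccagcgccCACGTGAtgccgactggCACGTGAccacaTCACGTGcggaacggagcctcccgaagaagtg
Ctsa, chr2:164833735-164833798, + strand: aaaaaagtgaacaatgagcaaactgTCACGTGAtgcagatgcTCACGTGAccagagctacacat
Atp6v0e, chr17:26676373-26676421, + strand: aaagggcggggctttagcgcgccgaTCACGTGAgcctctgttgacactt
Ctsl, chr13:64370726-64370770, - strand: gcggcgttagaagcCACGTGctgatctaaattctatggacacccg

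Lamp1 held 4 matches, at 62, 45, 28 and 16 bases before its start. Ctsa held 2, on either side of the later of its 2 annotated starts, Atp6v0e had 1 just past the start, and the single CACGTG of Ctsl lay 236 bases before the start and lacked the flanking letters of TCACGTG. The same letters were present in genes that were not past the threshold, of which the 4 with TCACGTG are printed for comparison with the same capitals, each in the window around its TCACGTG matches, with both windows of Ctsd.
Atp6v0b, chr4:117887317-117887391, - strand: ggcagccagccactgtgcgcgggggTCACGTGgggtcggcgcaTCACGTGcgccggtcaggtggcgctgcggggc
Atp6v0d1, chr8:105566039-105566093, - strand: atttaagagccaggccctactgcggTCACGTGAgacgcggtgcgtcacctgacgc
Atp6v1a, chr16:44139359-44139416, - strand: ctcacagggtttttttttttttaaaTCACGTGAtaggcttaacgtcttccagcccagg
Ctsd, chr7:142388041-142388077, - strand: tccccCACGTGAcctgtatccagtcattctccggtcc
Ctsd, chr7:142387894-142387951, - strand: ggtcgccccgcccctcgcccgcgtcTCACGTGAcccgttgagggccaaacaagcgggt

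Among the genes with a promoter entry, CACGTG stood in 4 of the 7 that rose and in 5 of the 17 that were tested and not called. TCACGTG stood in 3 of the 7 and in 4 of the 17. Ctsf, not called, held CACGTG without the flanking letters of TCACGTG and is not printed. Atp6ap1, Atp6v1e1 and Ctsz rose and had no CACGTG in the window. No entry was found for Atp6v0a2, Atp6v0d2, Atp6v1b2, Atp6v1c1, Atp6v1g1, Atp6v1h, Ctsb, Ctse, Ctsh and Ctsw. A match describes letters in a window and not a site in use.

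The libraries were of like depth, with 23893197 to 25725743 reads recovered from the FPKM steps, so that 1 read on 1 kb of exon was worth 0.0389 to 0.0419 FPKM. By the mean chi-square per gene between recovered reads, siNC library 1 stood at 7.14 and 7.49 from siNC libraries 2 and 3. Those stood at 2.79 from each other, and the siSox9 libraries at 1.94 to 4.17. Between the groups the values were 22.7 to 25.8. Sox9 itself was at 8.87 ± 0.236 FPKM in siSox9 and 25.96 ± 0.496 FPKM in siNC (SD, n = 3 each), a log2 difference of -1.45 (SE 0.03, adjusted p = 7.03e-06, limma). All 10 tubular epithelial markers were expressed, among them Epcam and Pax8, whereas of 7 proximal tubule markers in the table only Lrp2 reached 1 FPKM. All genes that averaged 1 FPKM or more over the 6 libraries were fitted together by limma on log2(FPKM + 1), and a gene is said to have risen or fallen where its p, adjusted by Benjamini-Hochberg over all 12009 genes fitted, was under 0.05. A log2 difference on this scale understates the change of low genes.

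Of the 40 genes, 32 passed the filter on low values. With siSox9, 12 of the 32 rose and 0 fell by limma, while 12.8% of all fitted genes rose and 17.6% fell. The count at an unadjusted p under 0.05 was 16 higher and 1 lower, and the share of all genes at that threshold was not taken. A voom fit on the reads recovered for 28 of the genes called 10 higher and 0 lower. Of all 10479 genes in that voom fit, 1524 rose and 2183 fell. The difference was positive in 25 of the 32 genes with a median of 0.09, where the median of all fitted genes was -0.01 and 46.4% were positive. In 15 genes every siSox9 library lay above every siNC library, a pattern seen in 20.2% of all fitted genes, and in 1, Ctsb, every siSox9 library lay below, as in 26.1% of all. The rises were small, from 11.9% for Atp6v1c1 to 56.5% for Ctsw, and 9 of the 12 stayed past the threshold under every alternative in which they were fitted. The direction of the whole table depends on scaling, with 1532 genes higher and 2118 lower as deposited and 1959 higher and 1765 lower after centring each library on its median gene. The number of these 40 genes that rose was 12 and 14 under those scalings. In a fit of only the genes averaging 5 FPKM or more, 1328 of 7495 rose and 1376 fell, and the same 12 genes of the set were called.

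Of the 10 markers of the tubular epithelium, 2 rose and 0 fell by limma (2 higher and 1 lower at an unadjusted p under 0.05), with a median log2 difference of -0.02. Among all fitted genes 12.8% rose and 17.6% fell. The lower one was Pax2, at 10.7 ± 0.838 FPKM in siSox9 and 12.1 ± 0.811 FPKM in siNC (log2 -0.17, adjusted p = 0.0937, limma). In Krt19 every siSox9 library lay below every siNC library (log2 -0.04, adjusted p = 0.253, limma). Cdh16, the kidney cadherin, was at 129.7 ± 0.424 FPKM in siSox9 and 100.9 ± 2.84 FPKM in siNC, higher by 28.4% (log2 0.36, adjusted p = 0.000307, limma), and Ezr, ezrin of the microvilli, at 147.8 ± 1.16 and 134.1 ± 4.72 FPKM, higher by 10.2% (log2 0.14, adjusted p = 0.0186, limma). The summed level of the 10 was 4245 to 4403 FPKM in siSox9 and 4073 to 4286 FPKM in siNC, so the ranges overlapped, and the part of these markers' cells in the rises was not tested.

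**Figure D1:**
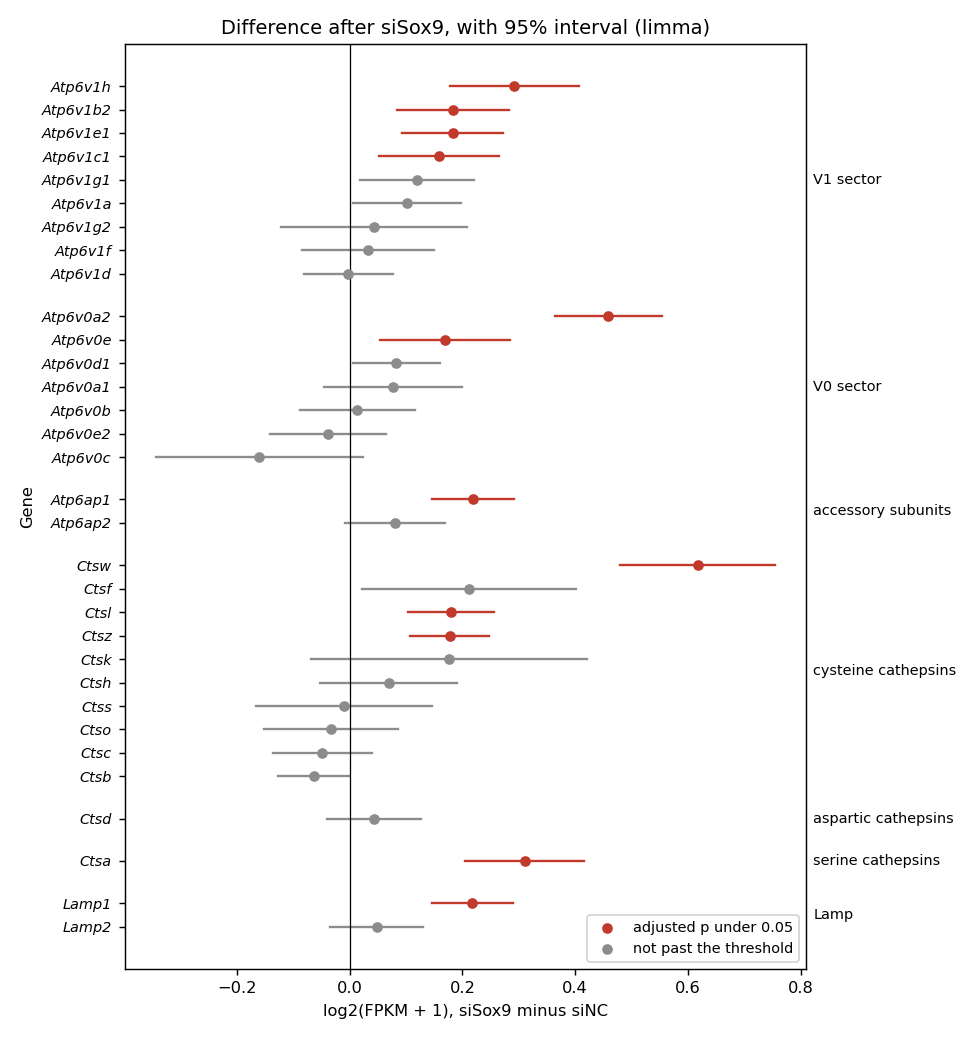
Log2 difference of log2(FPKM + 1), siSox9 minus siNC, for the 32 genes fitted, grouped by family, with bars for the 95% confidence interval and red for those past an adjusted p of 0.05. The 12 called genes lie to the right of 0, led by Ctsw at 0.62 and Atp6v0a2 at 0.46, and 0 called genes lie to the left.

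The genes spanned a wide range of levels. Ctsd was the most abundant at 241.5 FPKM in siSox9 and 234.3 FPKM in siNC, higher than 98.9% of the fitted genes. Lamp1, Atp6v1g1 and Atp6ap1 followed at means of 171.1, 153.4 and 108.4 FPKM in siSox9, and at the low end Atp6v1g2 and Ctsk were near 1 FPKM. Across the fitted genes of the set whose reads could be recovered, a library gave from 26 to 14954 reads per gene, so that the low members carry the larger counting error.

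**Figure D2:**
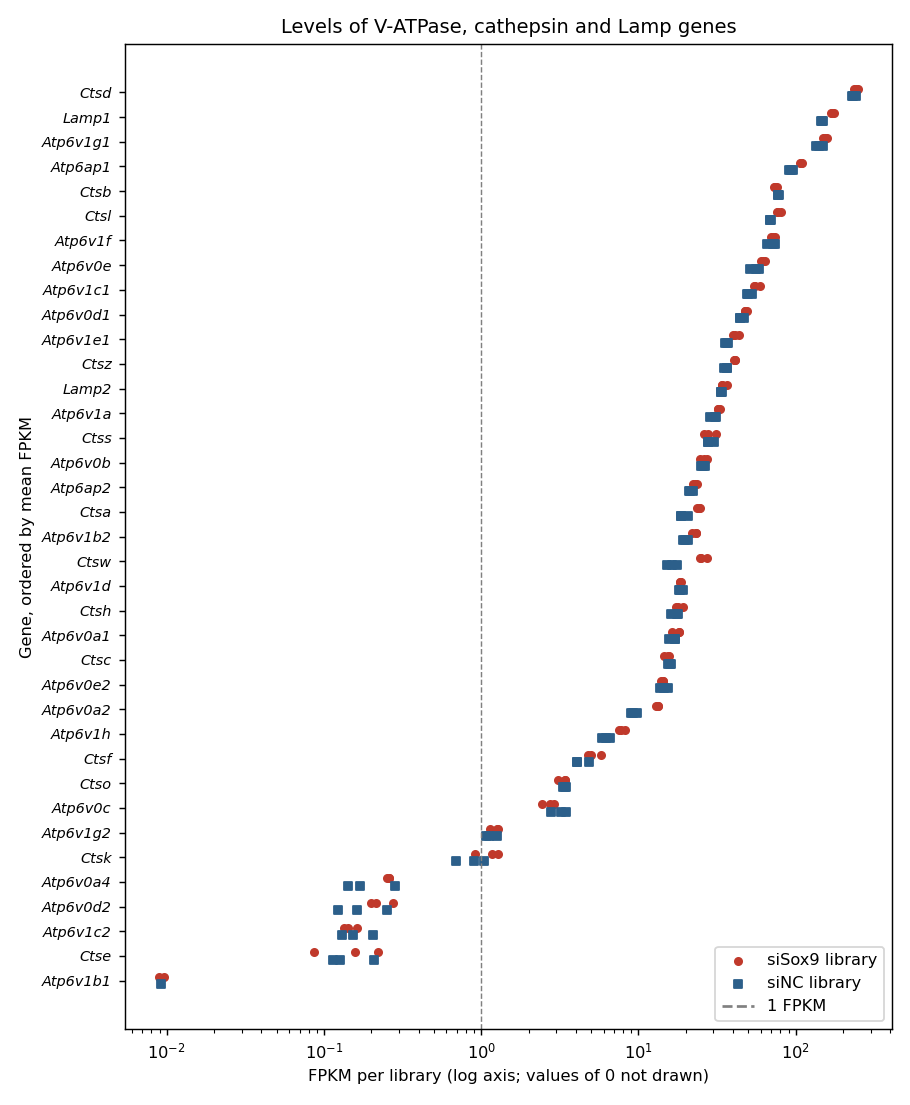
FPKM of each gene in each of the 6 libraries on a log axis, ordered by mean FPKM, with 1 point per library and values of 0 not drawn. Most genes hold both groups within a narrow band, the fitted genes run from about 1 FPKM for Ctsk to a mean of 241.5 FPKM for Ctsd in siSox9, 5 further genes lie under 1 FPKM, and Atp6v0c stands far below the other ubiquitous V0 subunits.

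In the V1 sector, 4 of 9 fitted genes rose, where 12.8% of all fitted genes rose. Atp6v1h (ENSMUSG00000033793, chromosome 1 from 5070018 to 5162529), which encodes the regulatory subunit H, was at 7.74, 7.57 and 8.20 FPKM in the 3 siSox9 libraries and at 5.90, 6.19 and 6.57 FPKM in the siNC libraries. The groups did not overlap, and the mean of 7.84 ± 0.327 exceeded that of 6.22 ± 0.339 by 26.0% (log2 0.29, SE 0.05, adjusted p = 0.00466, limma). It was the least abundant of the 4 and changed by the largest factor.

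Atp6v1b2, the B2 form of the subunit that shares the nucleotide sites with subunit A, was at 23.3, 21.8 and 23.1 FPKM in siSox9 and 19.1, 19.9 and 20.7 FPKM in siNC, a rise of 14.3% (log2 0.18, SE 0.04, adjusted p = 0.0161, limma). Atp6v1e1, a peripheral stalk subunit, was at 40.2, 41.0 and 43.5 FPKM against 35.6, 37.2 and 36.6 FPKM, a rise of 13.9% (log2 0.18, SE 0.04, adjusted p = 0.0112, limma). Atp6v1c1, subunit C at the foot of the stalks, was at 55.3, 54.1 and 59.4 FPKM against 48.8, 52.6 and 49.6 FPKM, a rise of 11.9% (log2 0.16, SE 0.05, adjusted p = 0.0366, limma). In all 3 genes each siSox9 library lay above each siNC library, but the distance between the groups was small. Without siSox9 library 1 or 3 the adjusted p of Atp6v1b2 was 0.0588 or 0.0518. Atp6v1c1 was past the threshold with all 6 libraries and without siNC library 2, and not without any other single library, where its adjusted p ran from 0.0509 to 0.107.

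The other V1 genes fitted were not called. Atp6v1g1, a further stalk subunit, was at 153.4 ± 4.43 FPKM in siSox9 and 141.2 ± 6.95 FPKM in siNC (log2 0.12, adjusted p = 0.0763, limma), with no overlap between the groups. In it, 19.2% of all runs of 50 letters of exon were shared with the pseudogenes Gm13453 and Gm12344, so its reads could be split between copies. Atp6v1a, the catalytic subunit A, was at 32.3 ± 0.562 FPKM against 30.1 ± 1.48 FPKM (log2 0.10, adjusted p = 0.103, limma), again without overlap. Atp6v1d, of the central rotor, was at 18.5 FPKM in both groups, with a 95% confidence interval of the log2 difference from -0.08 to 0.08. Atp6v1f was at 71.8 and 70.3 FPKM, and the G2 form Atp6v1g2, known from neurons, at 1.22 and 1.15 FPKM. Summed over the V1 genes, the FPKM was 405.9 ± 8.81 in siSox9 and 374.4 ± 15.6 in siNC, higher by 8.40%. The sum was lowest in siNC library 1, at 357.3 FPKM, against 387.6 and 378.4 FPKM in siNC libraries 2 and 3.

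In the V0 sector, 2 of 7 fitted genes rose, where 12.8% of all fitted genes rose. Atp6v0a2 (ENSMUSG00000038023, chromosome 5 from 124628576 to 124724455) encodes form a2 of subunit a, the static proton channel subunit that also targets the pump to a compartment, and a2 is known from the Golgi and endosomes. It was at 12.9, 13.2 and 13.3 FPKM in the siSox9 libraries and at 9.80, 8.93 and 9.23 FPKM in the siNC libraries, which corresponded to 2240, 2262 and 2143 reads against 1637, 1451 and 1543. The groups stood well apart, and the mean of 13.2 ± 0.204 exceeded 9.32 ± 0.442 by 41.3% (log2 0.46, 95% confidence interval 0.36 to 0.55, adjusted p = 0.000364, limma). An antisense gene, 4930404A12Rik, covers 9.86% of its exon bases, and the sources used here do not state whether reads were counted by strand.

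The paralogs of a2 were not past the threshold. Atp6v0a1 was at 17.5 ± 0.929 FPKM in siSox9 and 16.5 ± 0.846 FPKM in siNC (log2 0.08, adjusted p = 0.304, limma). Tcirg1, the a3 form known from the lysosomes of osteoclasts and macrophages, was at 14.9 ± 0.836 FPKM and 16.3 ± 1.16 FPKM (log2 -0.12, adjusted p = 0.157, limma). As shares of the summed FPKM of the subunit a genes, a2 made up 28.4%, 27.96% and 29.9% in siSox9 and 21.96%, 22.1% and 21.9% in siNC, so that the groups were separate and the siNC libraries nearly equal. The share of Tcirg1 was 31.4%, 33.5% and 32.7% against 39.6%, 39.0% and 37.0%, and that of Atp6v0a1 was 38.1% ± 1.40 against 39.0% ± 1.27. The sum over subunit a was 45.8 ± 1.42 FPKM in siSox9 and 42.4 ± 2.13 FPKM in siNC. These shares are a description and were not tested.

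**Figure D3:**
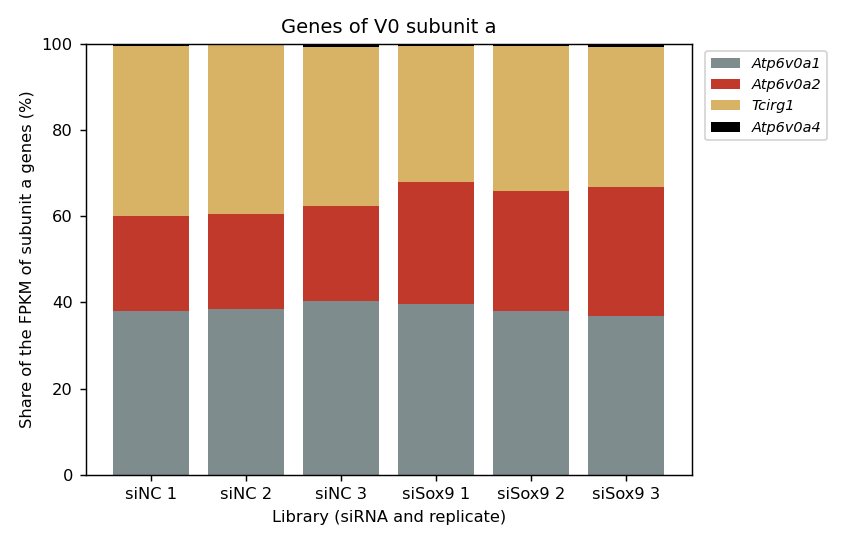
Share of the summed FPKM of subunit a taken by each of its genes in each library, in percent, with Tcirg1 included. Atp6v0a2 takes 27.96% to 29.9% in the siSox9 libraries and 21.9% to 22.1% in the siNC libraries, and Tcirg1 a lower share in siSox9 than in siNC.

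Atp6v0e, a small membrane subunit, was at 59.9, 62.1 and 63.8 FPKM in siSox9 and 51.4, 58.1 and 55.7 FPKM in siNC. The siSox9 libraries lay above the siNC libraries by a narrow margin, with a rise of 12.6% (log2 0.17, SE 0.05, adjusted p = 0.0377, limma). Without any 1 of the siSox9 libraries, or without siNC library 1 or 3, its adjusted p ran from 0.0529 to 0.107 and the call was lost. Its paralog Atp6v0e2 was at 14.1 and 14.5 FPKM (log2 -0.04, adjusted p = 0.548, limma), and Atp6v0e made up 81.4% ± 0.268 of the pair in siSox9.

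Atp6v0d1, which links the rotor to the c ring, was at 48.0 ± 0.746 FPKM in siSox9 and 45.3 ± 1.40 FPKM in siNC (log2 0.08, adjusted p = 0.0972, limma), with no overlap. Atp6v0b, a proteolipid of the ring, was at 25.9 and 25.7 FPKM. Atp6v0c, the main proteolipid of the ring, was listed at only 2.70 ± 0.231 FPKM in siSox9 and 3.14 ± 0.346 FPKM in siNC, from 252, 210 and 223 reads against 270, 281 and 232 (log2 -0.16, 95% confidence interval -0.34 to 0.02, adjusted p = 0.165, limma). Its level lies far below that of Atp6v0b and Atp6v0d1, and 10.8% of its runs of 50 exon letters also occur in Atp6v0c-ps2 and Atp6v0c-ps1, so its level is uncertain. The part of shared sequence in that level was not tested. The summed FPKM of V0 was 183.8 ± 1.09 in siSox9 and 169.9 ± 4.47 in siNC, higher by 8.22%. This sum too was lowest in siNC library 1, at 164.8 FPKM, against 173.3 and 171.5 FPKM in siNC libraries 2 and 3.

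Of the 8 genes under a mean of 1 FPKM, 5 were the pump isoforms known from intercalated cells. Atp6v0a4 had 33, 32 and 31 reads in siSox9 and 21, 17 and 35 in siNC, and Atp6v0d2 had 14, 19 and 14 against 11, 8 and 17. Atp6v1c2 had 7 to 11 reads and Atp6v1b1 0 or 1 read in a library, and Atp6v1g3 was at 0 in all 6, where the limit that 0 reads allow, taken as 3 reads, is 0.117 to 0.126 FPKM on 1 kb of exon. Of the markers of intercalated cells, 5 of 7 were in the table, 0 reached 1 FPKM, and Slc26a4 was at 0. Their summed level was 0.350 to 0.514 FPKM in siSox9 and 0.151 to 0.322 FPKM in siNC, without overlap. Slc4a9, at 0.403 ± 0.0786 FPKM in siSox9 and 0.209 ± 0.0774 FPKM in siNC, made up most of that sum, and the difference was not tested. At the level of RNA the ubiquitous isoforms made up nearly all of the pump, with Atp6v1b2 taking 99.96% to 100% of the FPKM of subunit B and Atp6v0d1 at least 99.4% of subunit d in every library. The other 3 genes under 1 FPKM were Ctse, with 7 to 18 reads, and Ctsj and Ctsq, known from placenta, both at 0 in all 6 libraries.

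Of the accessory subunits, Atp6ap1 rose. This gene (ENSMUSG00000019087, chromosome X from 74297097 to 74304721) encodes Ac45, which takes part in assembly and sorting of the pump, and was at 108.8, 109.6 and 106.8 FPKM in siSox9 and 95.7, 92.8 and 90.6 FPKM in siNC. The groups did not overlap, with means of 108.4 ± 1.45 and 93.0 ± 2.56 FPKM and a rise of 16.5% (log2 0.22, SE 0.03, adjusted p = 0.00244, limma). Atp6ap2, the prorenin receptor, was at 22.8 and 21.5 FPKM (log2 0.08, adjusted p = 0.15, limma).

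Of the 12 cathepsins fitted, 4 rose, where 12.8% of all fitted genes rose. Ctsw (ENSMUSG00000024910, chromosome 19 from 5465240 to 5468498), a cysteine cathepsin best known from cytotoxic lymphocytes and natural killer cells, changed by the largest factor of the set. It was at 25.1, 24.7 and 27.3 FPKM in the siSox9 libraries and 17.6, 15.3 and 16.4 FPKM in the siNC libraries. The groups were well separated, with means of 25.7 ± 1.43 and 16.4 ± 1.13 FPKM and a rise of 56.5% (log2 0.62, SE 0.06, 95% confidence interval 0.48 to 0.75, adjusted p = 0.000481, limma). Its FPKM did not resolve into whole reads, so no read number is given. In the GENCODE M21 annotation the opposite-strand neighbour Fibp overlaps 0.477% of the exon bases of Ctsw. The listed position of Ctsw differs from that annotation, so the overlap in the gene model that was counted is not known. Fibp was at 7.08 ± 0.350 FPKM in siSox9 and 6.89 ± 0.337 FPKM in siNC (adjusted p = 0.632, limma).

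Ctsa (ENSMUSG00000017760, chromosome 2 from 164832873 to 164841032), a serine carboxypeptidase that also protects the lysosomal galactosidase and neuraminidase, was at 24.3, 24.6 and 23.7 FPKM in siSox9 and 20.7, 18.6 and 18.7 FPKM in siNC. Every siSox9 library lay above every siNC library, with a rise of 25.1% (log2 0.31, SE 0.05, adjusted p = 0.00269, limma). The opposite-strand gene Pltp covers 10.5% of its exon bases.

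Ctsl, a broad endopeptidase abundant in kidney, was at 75.8, 77.1 and 80.9 FPKM in siSox9 and 68.4, 69.4 and 68.2 FPKM in siNC, a rise of 13.5% (log2 0.18, SE 0.03, adjusted p = 0.0066, limma). Ctsz, a carboxypeptidase also called cathepsin X, was at 40.7, 41.3 and 41.2 FPKM against 36.6, 35.2 and 36.8 FPKM, a rise of 13.4% (log2 0.18, SE 0.03, adjusted p = 0.00474, limma). In both genes the replicates lay close together and the groups apart. The antisense gene Gm47123 covers 26.8% of the exon bases of Ctsl, which leaves its reads open to mixing if strand was not used.

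Ctsd and Ctsb, the cathepsins with the highest mean FPKM over the 6 libraries, were not past the threshold. Ctsd, the main aspartic protease of lysosomes, was at 241.5 ± 5.67 FPKM in siSox9 and 234.3 ± 7.99 FPKM in siNC (log2 0.04, adjusted p = 0.398, limma). A same-strand gene, Gm49369, overlaps 34.4% of its exon bases, so its level is uncertain. Ctsb, a cysteine protease with both endopeptidase and peptidyl-dipeptidase action, was at 74.2 ± 1.15 FPKM in siSox9 and 77.6 ± 0.660 FPKM in siNC. It was the only gene of the 32 with every siSox9 library below every siNC library (log2 -0.06, 95% confidence interval -0.13 to -0.00, adjusted p = 0.118, limma). The opposite-strand gene Fdft1 covers 12.8% of its exon bases. Ctsd alone took 42.3% to 44.5% of the summed cathepsin FPKM in siSox9 and 44.2% to 45.8% in siNC, so that the sum, 556.0 ± 2.25 against 522.8 ± 7.93 FPKM, was higher by 6.35%.

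The other cathepsins were lower in level. Ctsf was at 5.16 ± 0.516 FPKM in siSox9 and 4.33 ± 0.449 FPKM in siNC (log2 0.21, adjusted p = 0.0891, limma). Ctsc, the dipeptidyl peptidase that activates granule proteases, was at 15.3 and 15.8 FPKM, Ctsh, an aminopeptidase, at 18.1 and 17.2 FPKM, and Ctso at 3.30 and 3.39 FPKM. Ctsk, known from osteoclasts, was at 1.12 ± 0.191 and 0.880 ± 0.176 FPKM, from 26 to 50 reads in a library. Ctss, known from macrophages and dendritic cells, was at 28.4 ± 2.60 and 28.5 ± 1.35 FPKM (log2 -0.01, 95% confidence interval -0.17 to 0.15, adjusted p = 0.929, limma).

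Macrophages are rich in cathepsins, and their markers were present in these cultures. Of 12 macrophage markers 10 reached 1 FPKM, of which Lyz2 rose and C1qc fell, where 12.8% of all fitted genes rose and 17.6% fell. The summed level of the 12 was 214 to 238 FPKM in siSox9 and 218 to 223 FPKM in siNC, so the ranges overlapped. Ptprc, which marks all leukocytes, was at 0.653 ± 0.0318 FPKM and 0.724 ± 0.0512 FPKM, and 0 of the 12 were at 0. The part of macrophages in the rises of Ctsz, Ctsl, Ctsa and Lamp1 was not tested. Of fibroblast and endothelial markers, 1 gene each reached 1 FPKM and neither was called. The summed level of the fibroblast and pericyte markers was 6.45 to 7.95 FPKM in siSox9 and 7.99 to 9.09 FPKM in siNC. That of the endothelial markers was 3.06 to 3.30 FPKM in siSox9 and 3.35 to 4.34 FPKM in siNC. Both sums were lower in siSox9 without overlap, and these differences were not tested.

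Lamp1 rose and Lamp2 was not called. Lamp1 (ENSMUSG00000031447, chromosome 8 from 13159161 to 13175338), whose 4 motif matches are printed above, was at 166.9, 170.8 and 175.6 FPKM in siSox9 and 149.3, 146.4 and 145.3 FPKM in siNC. The groups were clearly apart, with a rise of 16.4% (log2 0.22, SE 0.03, adjusted p = 0.00233, limma). The opposite-strand gene Grtp1 covers 9.31% of the exon bases of Lamp1. Lamp2, which in its A form serves as the receptor of chaperone-mediated autophagy, was at 34.9 ± 1.3 and 33.7 ± 0.450 FPKM (log2 0.05, adjusted p = 0.339, limma).

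**Figure D4:**
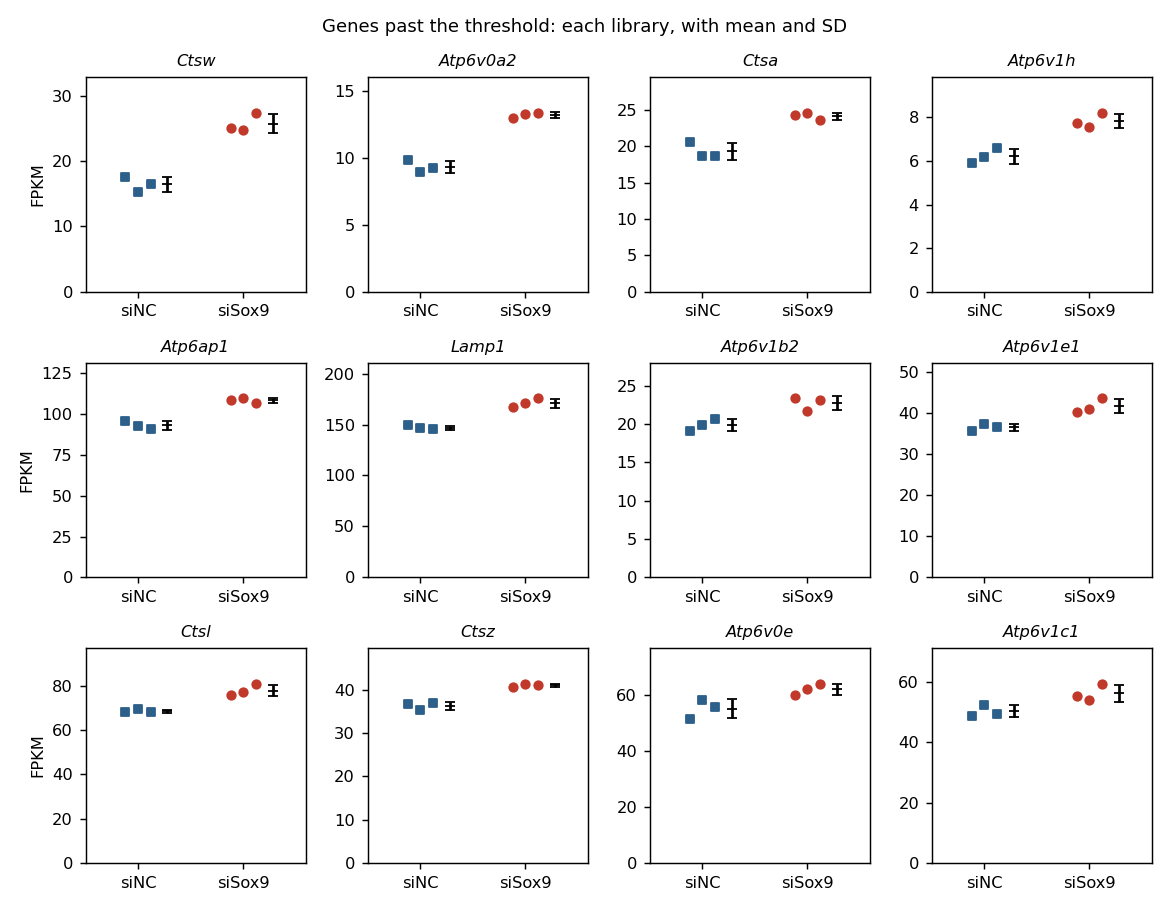
FPKM of the 12 genes that rose in each siNC library (blue squares) and siSox9 library (red circles), on axes that start at 0, with the mean and SD of each group (n = 3) as a black bar. The siSox9 points lie above the siNC points in all 12 panels, with the widest gaps for Ctsw and Atp6v0a2 and the narrowest for Atp6v1c1, Atp6v0e and Atp6v1b2.

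The rest of the lysosomal genes, 99 in 6 lists, moved in both directions. Of 92 fitted, 19 rose and 12 fell, with a median log2 difference of 0.00, where 12.8% of all fitted genes rose and 17.6% fell. These counts depend on the libraries and the fit, with 11 that rose without siSox9 library 2, and 5 that fell with no filter on low values, 7 with TPM and 6 with an unmoderated model. Of 36 hydrolases and their activators 13 rose and 3 fell, with a median of 0.06. Manba, the beta-mannosidase, was at 9.89 ± 0.525 FPKM in siSox9 and 6.56 ± 0.191 FPKM in siNC (log2 0.53, adjusted p = 0.000338, limma), and Hexa, the alpha chain of beta-hexosaminidase, at 19.6 ± 0.608 and 13.9 ± 0.521 FPKM (log2 0.46, adjusted p = 0.000331, limma). Ids, the iduronate sulfatase, fell from 12.0 ± 0.479 to 8.82 ± 0.346 FPKM (log2 -0.41, adjusted p = 0.000711, limma).

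Of 16 lysosomal membrane proteins 2 rose and 5 fell, where 12.8% of all fitted genes rose and 17.6% fell. Npc1, which exports cholesterol from the lysosome, fell from 6.91 ± 0.333 to 4.82 ± 0.282 FPKM (log2 -0.44, adjusted p = 0.00115, limma), and Tmem175, a lysosomal potassium and proton channel, from 2.27 to 1.67 FPKM (log2 -0.30, adjusted p = 0.0192, limma). Cln3 rose from 2.45 to 3.28 FPKM (log2 0.31, adjusted p = 0.00949, limma). Without siNC library 2 the adjusted p of Tmem175 was 0.0592.

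Of the 10 genes that sort enzymes to the lysosome, M6pr, the small mannose 6-phosphate receptor, rose from 62.7 ± 1.90 to 70.1 ± 1.5 FPKM (log2 0.16, adjusted p = 0.0122, limma) and Sort1, sortilin, fell from 16.4 ± 0.697 to 12.4 ± 0.156 FPKM (log2 -0.38, adjusted p = 0.000582, limma). The call on M6pr was lost without siSox9 library 2, with an adjusted p of 0.0511. In this list 1 gene rose and 1 fell, where 12.8% of all fitted genes rose and 17.6% fell. Among the cystatins, the inhibitors of cysteine cathepsins, 2 of 4 were fitted, and Cstb, the cytosolic cystatin B, rose from 219.5 ± 13.1 to 289.9 ± 10 FPKM (log2 0.40, adjusted p = 0.00144, limma).

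Of 12 factors that assemble or regulate the pump 10 were fitted, 0 rose and 2 fell by limma (0 higher and 3 lower at an unadjusted p under 0.05), with a median of -0.10. Among all fitted genes 17.6% fell. Rogdi fell from 9.0 ± 0.715 to 6.43 ± 0.413 FPKM (log2 -0.43, adjusted p = 0.00295, limma), and Dmxl2, also called rabconnectin-3 alpha, from 2.84 ± 0.234 to 2.21 ± 0.0601 FPKM (log2 -0.26, adjusted p = 0.0166, limma). Without siSox9 library 1 or siNC library 3 the adjusted p of Dmxl2 was 0.0549 or 0.0561. Rogdi and Dmxl2 encode parts of a complex that joins V1 to V0, of which the list also holds Dmxl1, at 4.62 ± 0.207 and 4.61 ± 0.105 FPKM (log2 0.00, adjusted p = 0.98, limma), and Wdr7, at 4.57 ± 0.258 FPKM in siSox9 and 4.95 ± 0.207 FPKM in siNC (log2 -0.10, adjusted p = 0.192, limma), both named after their values were seen.

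Of the 21 MiT/TFE factors and the proteins that control them at the lysosome, 18 were fitted, 2 rose and 1 fell. Of all fitted genes 12.8% rose and 17.6% fell. Lamtor1, the membrane anchor of the Ragulator complex, rose from 14.9 ± 0.0242 to 21.3 ± 0.499 FPKM (log2 0.49, adjusted p = 0.000103, limma), and the GTPase gene Rragd from 3.46 ± 0.101 to 4.66 ± 0.303 FPKM (log2 0.34, adjusted p = 0.00318, limma). Flcn, folliculin, fell from 7.16 ± 0.562 to 6.07 ± 0.201 FPKM (log2 -0.20, adjusted p = 0.0332, limma). The call on Flcn held without siNC library 2 and was lost without any other single library, with adjusted p from 0.0529 to 0.105. Tfe3 was at 5.94 ± 0.0737 and 5.95 ± 0.359 FPKM (log2 -0.00, adjusted p = 0.992, limma). Tfeb was at 1.25 ± 0.0813 FPKM in siSox9 and 1.62 ± 0.182 FPKM in siNC (log2 -0.21, adjusted p = 0.0686, limma). Its siSox9 libraries all lay below its siNC libraries, as in 26.1% of all fitted genes. Mitf, under 1 FPKM and not fitted, was at 0.683 ± 0.0599 FPKM in siSox9 and 0.971 ± 0.00443 FPKM in siNC, also without overlap. Tfec, not fitted either, was at 0.218 and 0.232 FPKM, and its groups overlapped. Tfe3, Tfeb, Mitf and Tfec were named after their values were seen.

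**Figure D5:**
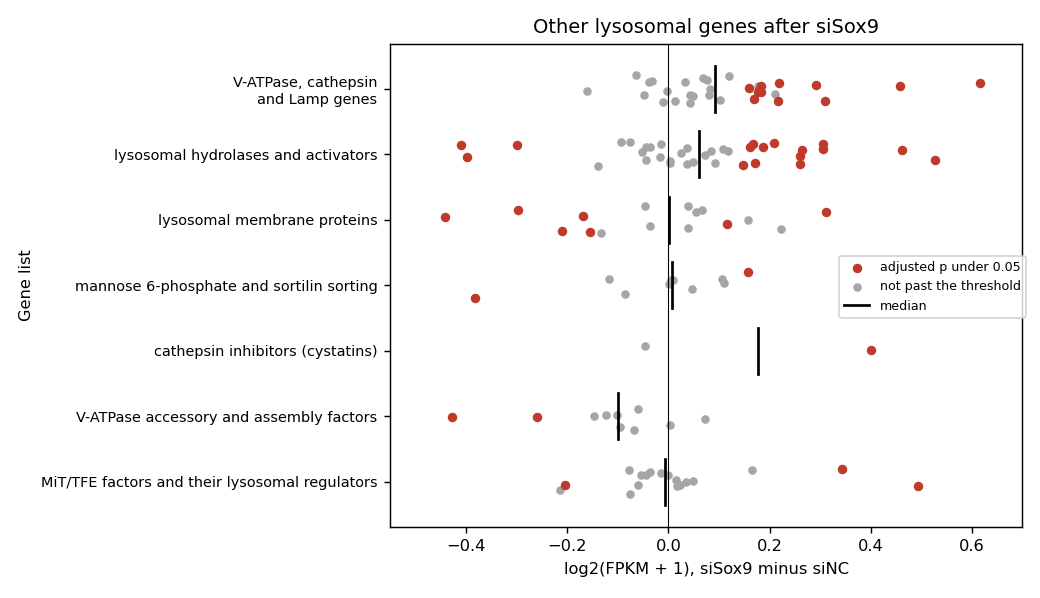
Log2 difference of log2(FPKM + 1), siSox9 minus siNC, for each fitted gene of the V-ATPase, cathepsin and Lamp set and of 6 further lysosomal lists, with a black bar at the median of each list and red for an adjusted p under 0.05. The red points of the top row all lie to the right of 0, whereas those of the other lists lie on both sides, apart from the cystatins with 1 to the right and the pump assembly factors with 2 to the left.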

How the data were processed

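Total RNA of 6 libraries (3 siSox9, 3 siNC) had been sequenced on an Illumina NovaSeq. The authors deposited FPKM per gene, normalized for exon length and library size. The submitters' processing notes name Bowtie2 2.2.3, HISAT2 2.1.0, TopHat2 and mm9, although the coordinates of the deposited table are those of GRCm38 for 93.3% of the 30246 genes found in GENCODE M21, and for 36 of the 40 genes described. Columns of the authors' own comparisons, fold changes and p-values, were not used.

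FPKM times exon length gave whole reads, within 0.02 in all 6 libraries, for 27948 genes, which fixed each library's depth. Replicate number was taken from the labels and not used as a block. Genes averaging 1 FPKM or more were tested with limma 3.58.1 (trend, moderated, two-sided) in R 4.3.3 on log2(FPKM + 1), with Benjamini-Hochberg adjustment over all 12009 genes. An exact permutation test of 3 against 3 libraries cannot go below p = 0.1 and was not used. A voom fit on recovered reads served as an alternative. The steps were tested on simulated data first. Tables were made in Python 3.11.15 (pandas 2.3.3, numpy 2.4.6) and plots with matplotlib 3.10.9. Reads carry no molecular identifiers, so read numbers and the limit of 3 reads cover counting error only.

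The genes and lists were chosen with earlier results of these data known. Every gene of the set that was tested is named. Of each other list, the 3 genes past the threshold with the largest absolute log2 difference are named, and further names are marked as chosen after their values were seen. Promoters are RefSeq start sites on GRCm38.p6, searched for CACGTG and TCACGTG on both strands. Alternatives were another pseudocount, no filter, a minimum mean of 5 FPKM, TPM, median centring, quantile normalization, the replicate block, an unmoderated model, voom, leaving out each library, and, chosen after seeing the data, scaling to the sum of protein-coding genes.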

Additional observations from a re-analysis of the deposited data

How the results depend on the processing

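The number of V-ATPase, cathepsin and Lamp genes that rose was 12 as reported and 9 to 14 under the 16 alternatives, and 0 fell in all but quantile normalization, where 1 gene, Ctsb, fell (adjusted p = 0.0354, limma). Leaving out 1 library at a time gave 9 to 14 genes that rose and 0 that fell. Lamp1, Atp6v0a2, Atp6v1e1, Atp6v1h, Atp6ap1, Ctsl, Ctsz, Ctsa and Ctsw were past the threshold in every alternative in which they were fitted. Calls were lost for Atp6v0e in 7 of 15 alternatives, for Atp6v1c1 in 8 of 15 and for Atp6v1b2 in 3 of 16, with adjusted p up to 0.115, 0.107 and 0.0588. Calls were gained for Atp6v1g1 with TPM, median centring, voom on recovered reads or without siNC library 2, for Atp6v0d1 with median centring and for Ctsf without siNC library 2. Voom could fit 28 of the 32 genes and gave 10 that rose.

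Among the 99 genes of the other lysosomal lists, 19 rose and 12 fell as reported. Leaving out 1 library at a time gave 11 to 21 that rose, the lowest without siSox9 library 2, and 8 to 12 that fell. Those that fell numbered 5 with no filter, 7 with TPM and 6 with an unmoderated linear model, and the cause was not tested. Gm23935 was the highest gene of siNC libraries 2 and 3, at 11180 and 19473 FPKM against 748 FPKM in siNC library 1, and enters the TPM scaling.

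With a replicate block, 11 of the same 12 genes rose, 0 fell, and Atp6v1c1 was lost (adjusted p = 0.0634). The block gave 18 list genes that rose and 11 that fell, and moved the adjusted p of Sox9 to 0.000781, while in this balanced design a block cannot change a log2 difference. The labels do not say that a number marks a shared batch, and the deviations of same-numbered libraries correlated at 0.0649, -0.0504 and 0.0078. With 3 libraries in a group, such correlations cannot decide whether same-numbered libraries share a culture or batch. Of the 3 siSox9 libraries, 1 correlated best with its own number.

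The sign reversed only in genes that were not called. Over leaving out 1 library, the log2 difference of Atp6v0b ran from -0.0192 (without siSox9 library 1) to 0.0492, that of Atp6v0e2 from -0.0728 to 0.000984 (without siNC library 3), that of Atp6v1d from -0.0186 to 0.0238 (without siNC library 2), that of Atp6v1f from -0.0169 (without siNC library 1) to 0.0654, that of Ctso from -0.0530 to 0.0062 (without siSox9 library 2) and that of Ctss from -0.0791 to 0.0441 (without siSox9 library 1). Atp6v1d was at 0.0256 with TPM, 0.0243 with median centring and 0.0089 with quantile normalization, Ctso at 0.0196 with quantile normalization, and Ctss at 0.0187 with TPM and 0.0169 with median centring. The depth limits what can be said of the 8 genes under 1 FPKM and of Ctsk, where counting error is largest.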
